A study of Mus musculus with 24 samples.

Results

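The genes described here encode subunits of the GABA-A receptor: the alpha subunits Gabra2, Gabra3, Gabra4 and Gabra5, the beta subunits Gabrb1 and Gabrb2, and the delta subunit Gabrd. They were chosen by name, with earlier results of these data known. All 7 are among the 15232 genes of the deposited expression table, which holds 15 GABA-A subunit rows in all. RNA came from the whole anterior cingulate cortex (ACC) of 24 mice, an area of the frontal midline, with 1 library per animal. The study asked how thrombospondins 1 and 2, matrix proteins secreted by astrocytes, bear on effort in a learned task, and the labels place the mice in 3 arms of 8, with the sexes in equal number (4 each). These are wild type (WT) without training, Thbs1/2 knockout (KO) without training, and Thbs1/2 KO with training. Trained animals were food deprived and worked in an operant chamber, and tissue was taken within 1 hour of the behaviour, so training and food deprivation cannot be told apart. Trained WT animals are not analysed here. The labels give neither the strain, the ages nor the knockout alleles, and the tissue held all brain cells.

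GABA-A receptors are chloride channels built from subunits around a central pore, usually alpha and beta subunits together with a gamma or a delta subunit. They carry most fast inhibition in the cortex. The alpha subunit sets much of the receptor's drug sensitivity and place on the neuron. Receptors with the alpha 2 subunit are known from inhibitory synapses on the axon initial segment of pyramidal cells, alpha 5 is known from hippocampal pyramidal cells and extrasynaptic sites, and alpha 4 pairs with delta in receptors outside synapses that respond to ambient GABA and to neurosteroids. Gabra2 mRNA in mouse brain is known to differ between inbred strains.

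Thbs1 and Thbs2, as the genes deleted by label, ran opposite to the labels. Thbs1 was at 0.512 ± 0.147 FPKM (fragments per kilobase of gene, scaled to library size; SD, n = 8) in the arm labelled WT, at 3.68 ± 0.840 FPKM (SD, n = 8) in untrained animals labelled KO and at 4.63 ± 0.690 FPKM (SD, n = 8) in the trained ones. Thbs2 was at 2.02 ± 0.294, 3.51 ± 0.378 and 3.29 ± 0.227 FPKM (SD, n = 8 each). The arms are therefore named by their labels, and each direction below rests on those labels. Recovered depth was 12898226 to 19991770 reads per library in the arm labelled WT, 12343773 to 27233266 in the untrained arm labelled KO and 16796512 to 20414047 in the trained arm. The animal numbers in the labels exceed 1000 for all 8 trained animals, 2 untrained males labelled KO and 1 male labelled WT, so animal number and training largely overlap.

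A pair of libraries stood apart in regional markers. In male untrained KO library 3, 9 of 10 markers of cortical excitatory neurons lay below the other 23 libraries (summed level 824.7 FPKM against 1243 to 1686 FPKM) and none was at 0. Its 11 striatal markers summed to 598.6 FPKM against 119.4 to 408.1 FPKM, with 10 of 11 above all other libraries, and all 8 genes of GABA synthesis and transport also lay above the rest. Its 4 septal markers summed to 96.5 FPKM against 7.15 to 12.7 FPKM, with 4 of 4 above all other libraries. Its 4 thalamic markers summed to 82.2 FPKM against 7.60 to 18.2 FPKM, but only 2 of 4 lay above all other libraries. Of its oligodendrocyte markers, 7 of 8 lay below the rest. In trained KO female library 2, 6 of 7 hippocampal genes (Prox1, C1ql2, Dsp, Fibcd1, Spink8, Lct and Zbtb20, listed after the Gabra5 values had been seen) lay above the other 23, with a sum of 56.4 FPKM against 6.86 to 21.02 FPKM. In bulk tissue, fewer cells of a type and less RNA per cell cannot be told apart.

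On chromosome 5 of mouse genome GRCm38, Gabra2 lies at chr5:70957597-71095849 on the minus strand, 473899 bases from Gabra4 (chr5:71569749-71658308, minus strand) and near Gabrb1 (chr5:71658113-72149037, plus strand). Gabra4 and Gabrb1 point away from each other and overlap by 196 bases at their starts. The library kit keeps strand, but whether the counting used it is not given in the sources used here, so reads in that overlap cannot be assigned with certainty. Gabrb2 lies at chr11:42419757-42629028, Gabrd at chr4:155384980-155398112, Gabra5 at chr7:57407672-57510059 and Gabra3 at chrX:72432681-72656848. None of them shares a chromosome with Thbs1 (chromosome 2) or Thbs2 (chromosome 17).

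Because Gabra2 differed most between the arms and Gabra5 had the library farthest above the rest of its arm in FPKM, the 250 bases before the RefSeq start of each (GRCm38.p6, minus strand, chr5:71095850-71096099 and chr7:57510060-57510309) are shown 5′ to 3′, with matches to the CCAAT box on either strand in capitals.
Gabra2: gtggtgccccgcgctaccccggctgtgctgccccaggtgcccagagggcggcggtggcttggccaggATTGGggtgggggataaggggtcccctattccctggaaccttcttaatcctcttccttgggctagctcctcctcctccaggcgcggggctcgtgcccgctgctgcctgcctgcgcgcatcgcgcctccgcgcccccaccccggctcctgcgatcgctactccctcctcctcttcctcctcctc
Gabra5: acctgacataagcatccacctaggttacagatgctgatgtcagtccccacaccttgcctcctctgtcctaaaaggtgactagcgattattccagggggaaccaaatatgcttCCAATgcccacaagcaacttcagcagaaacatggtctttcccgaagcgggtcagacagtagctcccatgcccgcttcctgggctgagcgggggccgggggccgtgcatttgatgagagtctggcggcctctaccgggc
RefSeq windows were matched for 6 of the 7 members. The Gabra2 window was 70.0% G and C and the Gabra5 window 56.4%, against a median of 52.4% over 32851 windows. The CCAAT letters were present in a window of 5 of the 6 members and in 33.8% of all windows, and TATAAA in 2 members and 12.4% of all windows. A member counted if any of its windows matched, and Gabrb1, Gabrb2 and Gabra3 had multiple windows each. The shares of all windows are per single window, so the member counts cannot be set directly against them. No member window held TGACGTCA (the CRE, in 1.55% of all windows), TGAGTCA (AP-1, 4.46%), GCGTGGGCG (EGR, 0.536%) or CACGTG (E-box, 6.02%). No searched motif contains another.

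By FPKM, which is scaled by gene length, Gabra3 was the most abundant member, at 53.6 ± 5.75 FPKM (SD, n = 24 libraries), followed by Gabrb2 at 52.6 ± 5.41, Gabrd at 33.3 ± 4.204, Gabra4 at 31.5 ± 3.38, Gabra5 at 27.6 ± 4.58, Gabra2 at 14.8 ± 4.88 and Gabrb1 at 13.8 ± 2.21 FPKM. The ranges of all neighbours in this order overlapped. Gabrb2 exceeded Gabrd, and Gabra5 exceeded Gabra2, in 24 of 24 libraries, and Gabra4 exceeded Gabra5 in 20 of 24. The order was not settled for Gabra3 and Gabrb2 (Gabra3 higher in 15 of 24), for Gabrd and Gabra4 (13 of 24) or for Gabra2 and Gabrb1 (8 of 24). In the arm labelled WT, Gabra2 was at 8.80 to 12.3 FPKM and Gabrb1 at 12.5 to 15.4 FPKM, without overlap. In trained males Gabra2 was the higher, at 19.1 to 22.6 FPKM against 7.85 to 14.5 FPKM. In the other groups of arm and sex these genes overlapped. The lowest library held 310 reads for Gabra2 and 282 for Gabrb1, which gives a counting error of 5.68% and 5.95%, and Gabrb2 never had under 4759 reads.

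**Figure D1:**
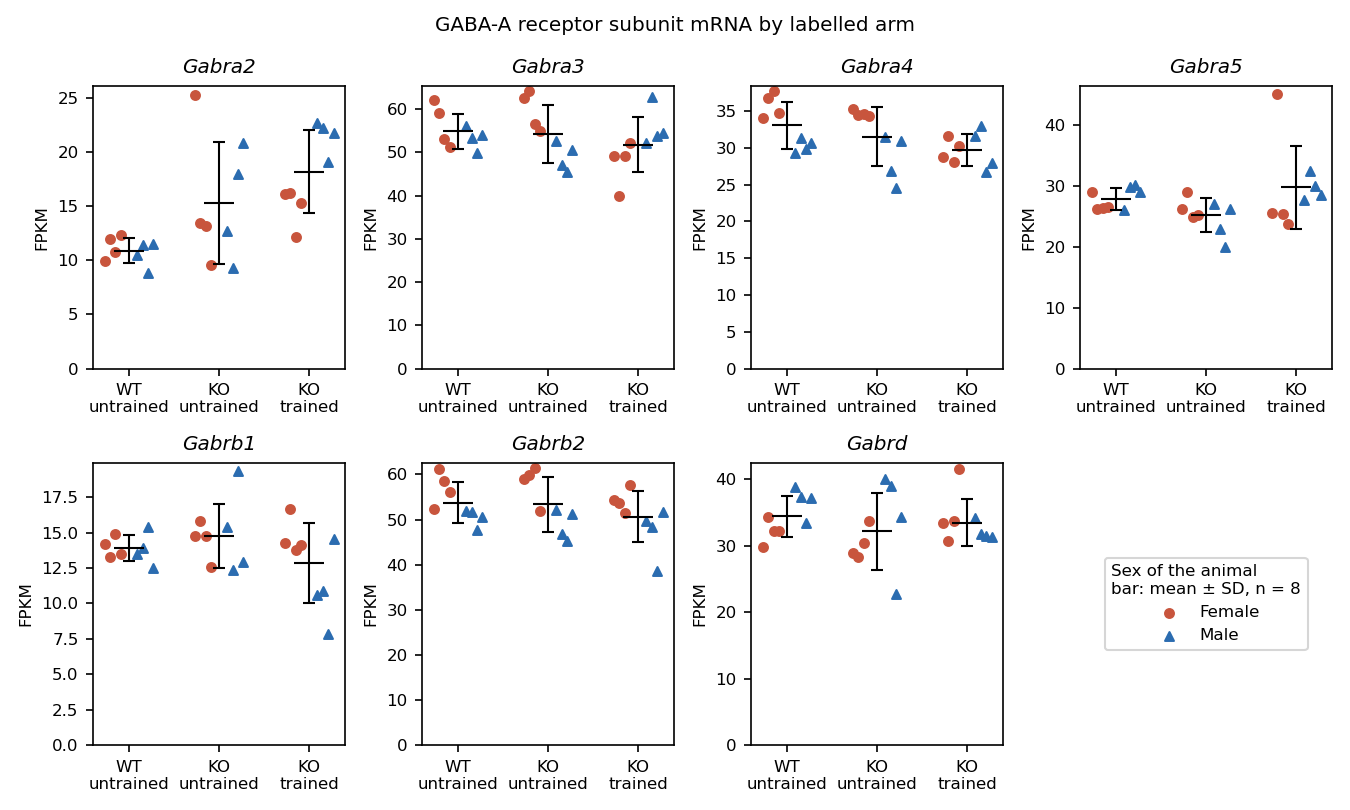
FPKM of the 7 subunits (y axes, from 0) in the 3 labelled arms (x axes), 1 point per library, circles for females and triangles for males, with the mean ± SD of 8 libraries. Gabra2 was between 8.80 and 12.3 FPKM in the arm labelled WT and spread from 9.26 to 25.2 FPKM in the untrained arm labelled KO.

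Gabra2 was the member that differed most between arms. Its mRNA was 1.59-fold higher in the trained arm labelled KO than in the untrained arm labelled WT (95% interval 1.38 to 1.83, on the FPKM + 1 scale), and 7 of 8 trained libraries lay above the highest library labelled WT. In the arm labelled WT the lowest, median and highest levels were 8.80, 11.1 and 12.3 FPKM. They were 9.26, 13.3 and 25.2 FPKM in the untrained arm labelled KO, where 6 of 8 libraries exceeded all those labelled WT, and 12.1, 17.6 and 22.6 FPKM in the trained arm. The means were 10.9 ± 1.15, 15.3 ± 5.61 and 18.2 ± 3.83 FPKM (SD, n = 8 each).

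Only the widest contrast of Gabra2 passed the test. The trained arm labelled KO exceeded the untrained arm labelled WT by 0.67 on the log2(FPKM + 1) scale (SE 0.0952, adjusted p = 0.000123, limma with Benjamini-Hochberg adjustment over 12572 genes, with sex as covariate). An exact permutation test of the same difference, exchanging arm labels within sex, gave p = 0.000816 (2-sided, smallest possible 0.000204). Untrained libraries labelled KO were 0.39 above those labelled WT (SE 0.164, adjusted p = 0.325, exact permutation p = 0.0596), and trained libraries 0.28 above untrained ones labelled KO (SE 0.173, adjusted p = 0.337, exact permutation p = 0.171). With animal number as a covariate the latter was 0.90 (SE 0.231, adjusted p = 0.232), and over the settings tried it ran from 0.18 to 0.92. The middle arm is shared by the last pair of comparisons. With animal number over or under 1000 as a covariate, the difference between trained and WT-labelled animals was 0.83 but its SE rose to 0.209 and the adjusted p to 0.147, so the call was lost. In this contrast the covariate rests on 1 animal labelled WT numbered over 1000, so it cannot separate animal number from arm.

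Within the sexes, Gabra2 in males labelled WT was at 10.4, 11.4, 8.80 and 11.5 FPKM and in trained males at 22.6, 22.2, 19.1 and 21.7 FPKM, without overlap. Untrained males labelled KO fell on both sides, at 12.7, 9.26, 17.9 and 20.8 FPKM. The animals with numbers over 1000 among them had the 12.7 and 9.26 FPKM, and the single male labelled WT with such a number had 10.4 FPKM, so among males numbered over 1000 the trained libraries were also the highest. Females labelled WT were at 9.97, 11.9, 10.8 and 12.3 FPKM, untrained females labelled KO at 25.2, 13.4, 13.1 and 9.54 FPKM and trained females at 16.1, 16.2, 12.1 and 15.3 FPKM. Trained males exceeded trained females by 0.50 on the log2 scale with no overlap, but the test of whether training acted differently by sex gave 0.49 (SE 0.339, adjusted p = 0.508, limma).

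The spread of Gabra2 between animals also differed by arm. Its SD within sex on the log2 scale was 0.15 in the arm labelled WT, 0.52 in the untrained arm labelled KO and 0.15 in the trained arm, against medians over all tested genes of 0.10, 0.13 and 0.11. The value in the untrained arm labelled KO lay at the 97.5th percentile of tested genes. Male untrained KO library 3, at 17.9 FPKM, was inside the range of the other 7 libraries of its arm for Gabra2. As a share of the summed FPKM of the 4 alpha members, Gabra2 made up 8.60 ± 0.858% in the arm labelled WT, 12.0 ± 3.87% in the untrained arm labelled KO and 13.95 ± 2.14% in the trained arm (SD, n = 8 each).

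**Figure D2:**
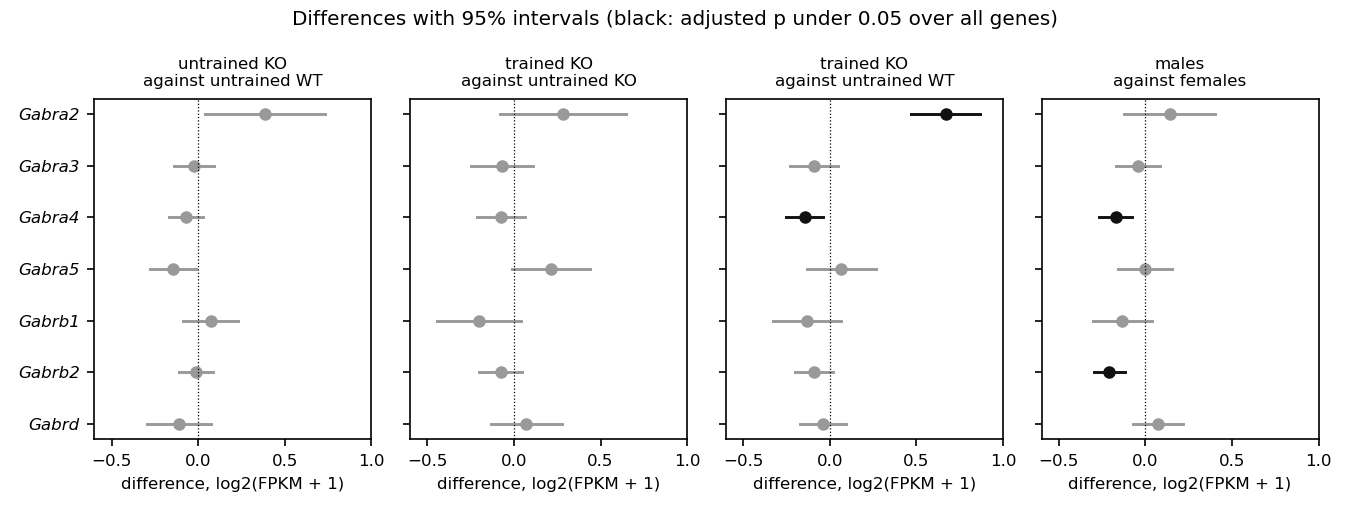
Difference on the log2(FPKM + 1) scale (x axes) for each subunit (rows) in 4 comparisons (panels), as the limma estimate (point) with its 95% interval (line), black where the adjusted p over all genes was under 0.05. Gabra2 stood at 0.67 in the trained arm labelled KO against the arm labelled WT, and Gabrb2 at -0.21 in males against females.

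Across the members, 0 of 7 passed between the untrained arms, where 1.42% of all tested genes passed, and 0 of 7 between the trained and untrained arms labelled KO, where 5.67% passed. At an unadjusted p under 0.05, 2 members, Gabra2 and Gabra5, stood out in the first of these, beside 12.7% of all genes, and none in the second, beside 23.8%. Without male untrained KO library 3 these p-values were 0.0513 for Gabra2 and 0.0561 for Gabra5 (limma, unadjusted). Between trained and WT-labelled animals, Gabra2 was higher and Gabra4 lower, 2 of 7, against 24.5% of all genes. With animal number as a covariate, 0 of 7 members and 0.175% of all genes passed in this comparison, and 0 of 7 members and 0% of all genes passed for training. The covariate rests on 1 animal labelled WT in the former and 2 untrained animals labelled KO in the latter. The median log2 difference of the 7 members was -0.02, -0.07 and -0.09 in these comparisons, against -0.00139, 0.00653 and 0.00322 over all tested genes. The other 8 subunit rows, of which 6 were tested, gave 0 calls in the first comparison, 0 in the second and 1 lower in the last.

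Gabra4, the alpha subunit that often joins delta, fell by 0.15 on the log2 scale in the trained arm against the arm labelled WT (SE 0.0521, adjusted p = 0.0488, limma). Levels were 29.3, 32.7 and 37.8 FPKM (lowest, median, highest) in the arm labelled WT, 24.5, 32.9 and 35.3 FPKM in the untrained arm labelled KO and 26.8, 29.6 and 33.0 FPKM in the trained arm. Females were at 34.0, 36.8, 37.8 and 34.8 FPKM in the arm labelled WT and at 28.8, 31.6, 28.0 and 30.3 FPKM when trained, without overlap. Males differed by -0.03 on the log2 scale between the same arms, and the difference between the sexes in this contrast was not tested. Untrained females labelled KO, at 34.3 to 35.3 FPKM, did not overlap the trained ones either. With training, females labelled KO differed by -0.22 and males by 0.07 on that scale. Training by sex gave 0.29 for Gabra4 (SE 0.112, adjusted p = 0.242, limma) and did not pass. The call of Gabra4 against the arm labelled WT was lost in 12 of the 16 fits that left out 1 library (adjusted p 0.0143 to 0.105) and under 9 of 14 other settings.

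Gabra3, an X-linked alpha subunit, passed in no comparison of arms, and its training differences had opposite signs in the sexes, without passing the test of that difference. Untrained females labelled KO were at 62.5, 64.1, 56.6 and 54.9 FPKM and trained females at 49.1, 40.0, 49.2 and 52.0 FPKM, without overlap, a log2 difference of -0.32. Untrained males labelled KO were at 52.6, 47.0, 45.5 and 50.4 FPKM and trained males at 52.1, 62.7, 53.9 and 54.6 FPKM, a log2 difference of 0.19 with overlapping levels. The difference between the sexes was 0.51 (SE 0.118, adjusted p = 0.0749, limma), where 0.00795% of genes passed for training by sex. It did not pass, and 3 of 15 other settings took it past the threshold (adjusted p 0.0208 to 0.387 over them). Without trained KO female library 2, which had the 40.0 FPKM, the difference was 0.43 (adjusted p = 0.0995). For training by sex, Gabra3, Gabra4 and Gabrb1 had an unadjusted p under 0.05 with limma, beside 15.5% of all genes. For genotype label by sex, 0% of all genes and 0 of 7 members passed with limma, and no member had an unadjusted p under 0.05.

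Gabra5, known from hippocampal pyramidal cells, had 1 library far above the rest. Its levels were 25.9, 27.7 and 30.2 FPKM (lowest, median, highest) in the arm labelled WT, 19.9, 25.7 and 28.9 FPKM in the untrained arm labelled KO and 23.6, 28.0 and 45.1 FPKM in the trained arm. The 45.1 FPKM was trained KO female library 2, while the other trained females were at 25.4, 25.3 and 23.6 FPKM. In the same library Prox1, a marker of dentate granule cells, was at 9.23 FPKM against 1.48 to 3.62 FPKM in the other 23. Hpca (hippocalcin) was at 529.8 FPKM there against 272.0 to 394.1 FPKM, and the part of these genes' cells in the Gabra5 level was not tested. Trained libraries were 0.21 above untrained ones labelled KO (SE 0.107, adjusted p = 0.236, limma), and 0.12 above them without that library (adjusted p = 0.368). The lowest value, 19.9 FPKM, was male untrained KO library 3. Without it the untrained arms differed by -0.10 (adjusted p = 0.305), against -0.15 (SE 0.0628, adjusted p = 0.333) with it.

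**Figure D3:**
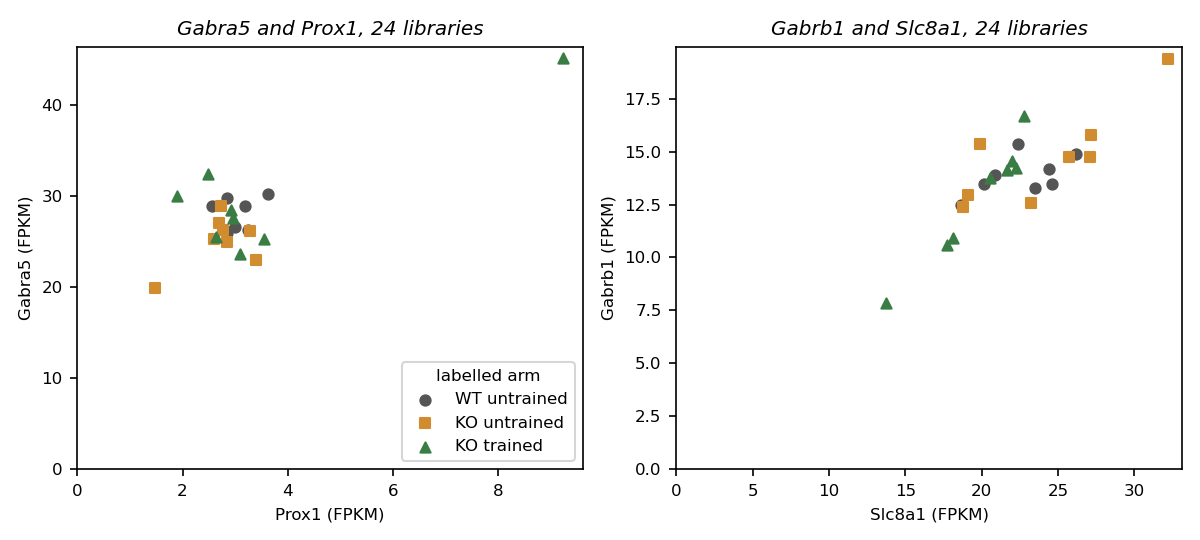
FPKM of Gabra5 against Prox1 (left) and of Gabrb1 against Slc8a1 (right), 1 point per library, coloured and shaped by labelled arm. The library at the upper right of the left panel is trained KO female library 2, at 45.1 FPKM of Gabra5 and 9.23 FPKM of Prox1.

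The beta subunits form the binding face for GABA together with alpha. Gabrb2, the more abundant, was at 47.7, 52.1 and 61.3 FPKM (lowest, median, highest) in the arm labelled WT, 45.2, 52.0 and 61.5 FPKM in the untrained arm labelled KO and 38.5, 51.6 and 57.6 FPKM in the trained arm. These ranges overlapped, and the intervals of the differences ran from -0.11 to 0.08 between the untrained arms and from -0.20 to 0.05 for training. Gabrb1 was at 12.5, 13.7 and 15.4 FPKM, 12.4, 14.8 and 19.4 FPKM, and 7.85, 13.9 and 16.7 FPKM in the same order. Trained males held the 3 lowest Gabrb1 levels of their arm, 10.6, 10.9 and 7.85 FPKM, beside 14.5 FPKM in the remaining male. Training by sex gave -0.45 for Gabrb1 (SE 0.210, adjusted p = 0.318, limma). The 19.4 FPKM was male untrained KO library 3, without which that value was -0.33 (adjusted p = 0.356).

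Gabrd, the delta subunit, was at 29.7, 33.9 and 38.8 FPKM (lowest, median, highest) in the arm labelled WT, 22.7, 32.0 and 40.0 FPKM in the untrained arm labelled KO and 30.6, 32.6 and 41.6 FPKM in the trained arm. No comparison passed, and the interval of the difference between trained and WT-labelled animals ran from -0.17 to 0.09. Male untrained KO library 3 had the 22.7 FPKM, below the 28.2 to 40.0 FPKM of the other 7. That library also lay below the rest of its arm for Gabra3, Gabra4, Gabra5 and Gabrb2 and above it for Gabrb1, beside its low summed cortical markers, whose part in these levels was not tested.

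Sex gave the other pair of calls. Gabrb2 was lower in males by a log2 difference of -0.21 (SE 0.0430, adjusted p = 0.00137, limma over all 24 libraries with arm as covariate). Gabra4 was lower in males by -0.17 (SE 0.0466, adjusted p = 0.00871). In all, 28.6% of tested genes passed for sex and 13.8% were lower in males, so 2 of 7 lower members is read against that share. Of the other GABA-A subunit rows, 6 were tested, of which 3 were called lower in males and 0 higher. The calls of Gabrb2 and Gabra4 held in 24 of 24 fits that left out 1 library. Gabra4 did not overlap between the sexes in either untrained arm, with males labelled WT at 29.3, 31.3, 29.9 and 30.7 FPKM beside females at 34.0 to 37.8 FPKM, but trained males and females differed by 0.00303 on the log2 scale. Gabrb2 was lower in males by 0.17, 0.24 and 0.21 on that scale in the 3 arms.

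Transcript base composition moved with the sex difference. Over 12118 genes with a GC content, it correlated with the male minus female difference at Spearman's rho = 0.70, a description across genes, which are not independent replicates. The longest annotated transcript of Gabra4 is 42.2% G and C and that of Gabrb2 44.02%, both under the median of 49.8%. With GC content and length corrected for in 20 bins, the sex difference was -0.06 for Gabra4 (adjusted p = 0.425), so its call was lost, and -0.14 for Gabrb2 (adjusted p = 0.0412). Under the same correction 4.97% of all genes passed for sex and 1.86% were lower in males. Gabra2, with 38.4% G and C, kept its difference between trained and WT-labelled animals under that correction, at 0.76 (adjusted p = 4.64e-06).

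Between animals of the same arm and sex, the members did not rise and fall as 1 block. Of 21 pairs, 0 passed after adjustment over the 21, and 3 had an unadjusted permutation p under 0.05. Gabra4 and Gabrb2 gave Pearson's r = 0.60 (permutation p = 0.0136, adjusted p = 0.168) and Spearman's rho = 0.56 (permutation p = 0.0217, adjusted p = 0.228) over 24 libraries, and r = 0.54 without the 2 libraries farthest from the median of Gabra4. Gabrb1 and Gabrd gave r = -0.55 (permutation p = 0.0160, adjusted p = 0.168) and rho = -0.57 (permutation p = 0.00740, adjusted p = 0.155), with r = -0.76 without the 2 farthest libraries. Without male untrained KO library 3 that r was -0.29, and that of Gabra4 and Gabrb2 was 0.56. The largest r without it were 0.63 for Gabrb1 with Gabrb2 (0.39 with it) and -0.61 for Gabra5 with Gabrd (-0.08 with it), neither of which passed (adjusted permutation p = 0.201 and 0.254). With GC content and length corrected for, Gabra4 with Gabrb2 was at 0.39 (permutation p = 0.151).

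**Figure D4:**
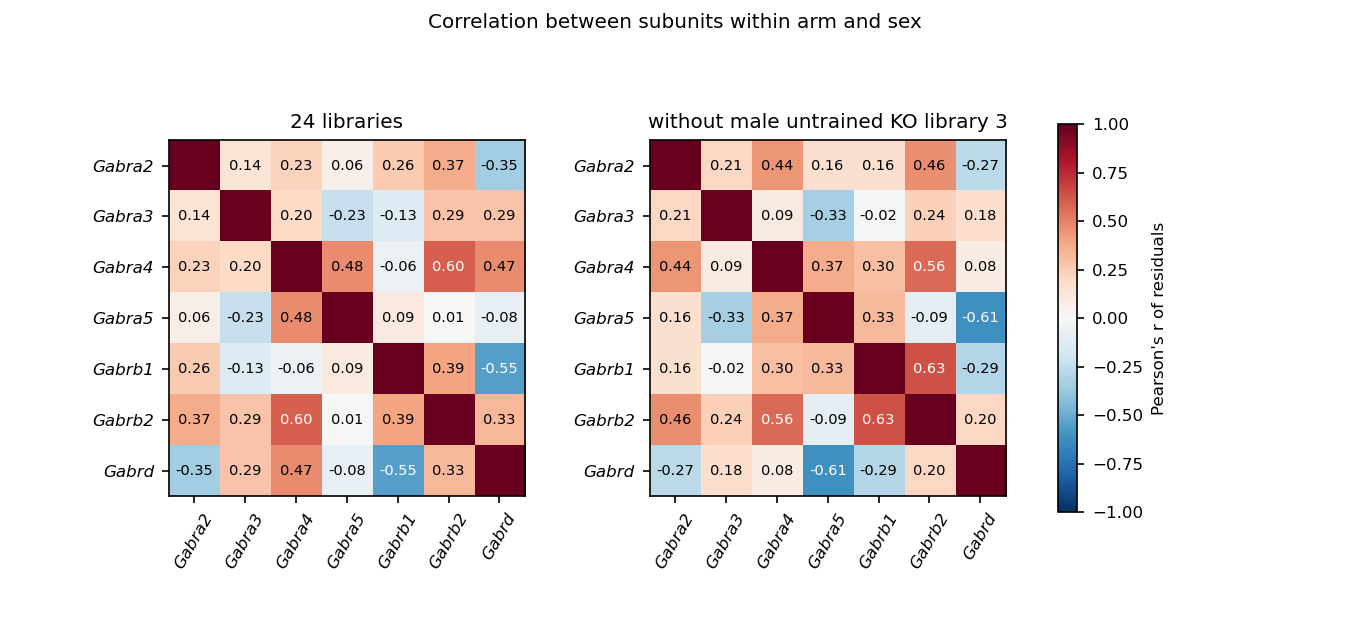
Pearson's r between the residuals of the subunits after arm and sex (colour and printed value), over 24 libraries (left) and without male untrained KO library 3 (right). Gabra4 with Gabrb2 was at 0.60 and 0.56, and Gabrb1 with Gabrd at -0.55 and -0.29.

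Some members had close companions among all genes, again as residuals over 24 libraries and as a description that shares library and base composition. Gabrb1 was most like Akap11 (r = 0.94), Slc8a1, a sodium-calcium exchanger (r = 0.92), and Tenm1 (r = 0.89), and Slc8a1 and Akap11 also led without male untrained KO library 3 (0.95 and 0.92). Gabrb2 was most like Ptpn4 (0.90), Cltc, the clathrin heavy chain (0.90), and Man1a2 (0.87). Gabra5 was most like Hpca (0.90), Wbscr17 (0.90) and Sh3bp5 (0.86), and without male untrained KO library 3 like Orai2 (0.96), Gria1, an AMPA receptor subunit (0.95), and Slc29a4 (0.94). Without trained KO female library 2 these r with Gabra5 were 0.69 for Hpca, 0.64 for Wbscr17, 0.88 for Sh3bp5, 0.21 for Orai2, -0.40 for Gria1 and -0.34 for Slc29a4. Gabrd was most like Rassf3 and, as the third in order, Sema7a (both 0.89) over 24 libraries. Without male untrained KO library 3 its closest gene, Adora2b, reached 0.74. Gabra4 was most like Oxct1 (0.82), Pja2 and Atp6v1a (both 0.80), and Gabra3 like 6430548M08Rik and Fam149a (both 0.85) and Dpp10 (0.76). Gabra2 had the least close companions, Ranbp3l (0.72), Slc17a8 and Itfg1 (both 0.70).

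Genes that anchor or traffic GABA-A receptors were read from a list of 23, of which 21 were tested. Between the untrained arms 0 of 21 passed, where 1.42% of all tested genes did. With training, Plcl1 and Plcl2, which encode PRIP proteins that bind GABA-A receptor beta subunits, rose, by 0.33 (SE 0.0859, adjusted p = 0.0355) and 0.33 (SE 0.0840, adjusted p = 0.0309, limma) on the log2 scale. They were 2 of 21, and 0 of 21 fell, beside 5.67% of all genes called. Plcl2 was at 16.3, 23.1 and 26.7 FPKM (lowest, median, highest) in untrained and at 24.4, 28.7 and 30.4 FPKM in trained libraries labelled KO. With animal number as a covariate neither passed, at 0.12 for Plcl1 (adjusted p = 0.795) and 0.20 for Plcl2 (adjusted p = 0.638). Plcl2 and Mdga1 lie on chromosome 17, the chromosome of Thbs2, as does the GABA-B receptor gene Gabbr1, which did not pass between arms. In the trained arm against the arm labelled WT, 5 of 21 rose (Plcl1, Plcl2, Gabarap, Trak1 and Mdga1) and 1 fell, beside 24.5% of all genes called. None of these 5 passed with animal number as a covariate (log2 0.05 to 0.38, adjusted p 0.341 to 0.930). There the covariate rests on 1 animal labelled WT, and for training on 2 untrained animals labelled KO. A call lost with it therefore cannot tell animal number from arm. Gphn, the scaffold gephyrin, gave 0.03, 0.02 and 0.05 in the 3 comparisons and did not pass.

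Of 8 genes of GABA synthesis and transport, 0 rose and 1 fell with training, beside 5.67% of all genes called. In the trained arm against the arm labelled WT, 1 rose and 1 fell, beside 24.5% of all genes. The one that rose was Slc6a13, the transporter GAT2, by 0.42 on the log2 scale (SE 0.140, adjusted p = 0.0349, limma), and by this test it did not pass with animal number as a covariate (0.71, adjusted p = 0.453). That covariate again rests on 1 animal labelled WT and cannot tell animal number from arm. Gad1 and Gad2, the GABA-making enzymes, and Slc32a1, the vesicular transporter, did not pass. Training gave -0.26 for Gad1, -0.38 for Gad2 and -0.41 for Slc32a1, in an untrained arm that includes male untrained KO library 3 with 285.3 FPKM of Gad1 against at most 170.8 FPKM in the other 23. Without that library these values were -0.13, -0.13 and -0.17.

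Of 7 genes of chloride transport and 5 of GABA-B receptors, none passed between the untrained arms or with training, where 1.42% and 5.67% of all genes did. Slc12a5, the exporter KCC2 that keeps neuronal chloride low, gave -0.00471, -0.07 and -0.07 in the 3 comparisons and did not pass. Slc12a2, the importer NKCC1, did not pass between arms and was lower in males by a log2 difference of -0.30 (SE 0.0569, adjusted p = 0.000771, limma). For sex, 28.6% of all genes passed and 13.8% were lower in males, and 4.97% passed with GC content and length corrected for. Against the arm labelled WT, trained libraries rose by 0.11 for Stk39, a kinase that acts on these transporters (adjusted p = 0.0206), 1 of 7 chloride genes, and fell by 0.39 for Kctd16, a GABA-B receptor auxiliary subunit (adjusted p = 0.00984), 1 of 5 GABA-B genes, beside the 24.5% of all genes. Neither passed with animal number as a covariate, at 0.10 (adjusted p = 0.702) and -0.51 (adjusted p = 0.468), where the covariate rests on 1 animal labelled WT. Stk39 lies on chromosome 2, the chromosome of Thbs1, as do Gad1, Gad2, Slc32a1 and Slc12a5, which did not pass between arms. No tested gene of neurosteroid synthesis or endozepines, of 4, passed in any of these comparisons.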

How the data were processed

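Poly(A) RNA from 24 animals was sequenced from stranded mRNA libraries, per the labels' protocols. The submitters' processing notes name FastQC 0.11.7, Trimmomatic 0.38, STAR 2.5.3a, featureCounts (Subread 1.6.3) and mm10. The deposited values are FPKM computed by the authors. The program that made them from counts and the annotation are not given in the sources used here. Whole reads, recovered from the steps of low values, came out for 15230 of 15232 genes (99.97% of values within 0.01 read, or 0.1 read for the highest genes) and give the depths.

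Differences in log2(FPKM + 1) were estimated per comparison by limma 3.58.1 (R 4.3.3, eBayes with trend) over 12572 genes whose mean FPKM reached 1, with sex as covariate, only the arms compared in the fit, Benjamini-Hochberg adjustment and a threshold of 0.05. The sex fit used all 24 libraries with arm as covariate. The log2(FPKM + 1) scale understates changes of low genes. Tested on simulated data of 12572 genes for the untrained arms, 198 of 200 genes changed 2-fold were recovered, with 10 false calls. The simulated noise was equal in both arms, so recovery of smaller changes or under unequal spread was not tested. Correlations used 100000 permutations of residuals. Other steps ran in Python 3.11.15 (scipy 1.17.1, pandas 2.3.3, numpy 2.4.6).

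The members and gene lists were chosen with earlier results of these data known. Named genes are the 7 members, list genes that passed (at most 6 per comparison), Gphn, Gad1, Gad2, Slc32a1, Slc12a5, Slc12a2, the 3 genes most like each member, Thbs1 and Thbs2. Some genes the rule gives are not reported here. Other settings tried were no filter or a minimum mean FPKM of 5, 0.1 as pseudocount, median-ratio, equal-sum and quantile scaling, no trend, all libraries in one fit, no covariate, array weights, the replicate block, an animal number covariate, GC and length correction, limma-voom on recovered reads and each library left out. Male untrained KO library 3 left out together with another setting was added after seeing the data. Labels say that libraries are separate animals. GENCODE M21 gave positions, and the GC content and length of the longest transcript of each gene. That transcript may differ from the one counted for the FPKM values.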

Additional observations from a re-analysis of the deposited data

Results flagged for a closer look

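Gabra5 in trained KO female library 2, at 45.1 FPKM, stood away from the other 7 trained libraries by more of the arm's range than Dixon's test allows, as did Gabrd in trained KO female library 4, at 41.6 FPKM. Of 21 arms of 8 tested, chance gives about 1.05 such values. The training differences of Gabra3 had opposite signs in the sexes, and the difference between them was 0.51 on the log2 scale, which did not pass (adjusted p = 0.0749, limma). Trained and untrained females did not overlap, and trained and untrained males did.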

How the results depend on the processing

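Gabra2 in the trained arm against the arm labelled WT was called in 13 of 14 other settings (log2 0.63 to 0.83) and in 16 of 16 fits leaving out 1 library (0.61 to 0.73). Only the animal number covariate ended that call, and it rests on 1 animal labelled WT numbered over 1000. The number of members called there, 2 at first, was 1 without the filter, with median-ratio scaling, without the trend, with all 24 libraries in one fit, without a covariate, with the replicate block, with the GC and length correction and with limma-voom on recovered reads, and 0 with the animal number covariate. Leaving out 1 library gave 1 to 2. For sex, 1 member was called under the GC and length correction, and 1 without male untrained KO library 3 under either that correction or the animal number covariate (both chosen after seeing the data). For training by sex, 1 member was called with quantile normalization, 1 with all 24 libraries in one fit and 2 with array weights. Of all 12572 genes, 86, 243 and 1132 were called under these settings, against 1 in the main fit. The cause was not tested. Leaving out 1 library gave 0 calls for the untrained arms, 0 for training, 2 for sex and 0 for both interactions, and 0 of 21 correlations passed in each setting run. The replicate numbers name different animals and did not pair them (mean correlation 0.02, -0.07 and -0.10). The block left Gabra2 at 0.72 (adjusted p = 0.00220) and Gabra4 at -0.14 (adjusted p = 0.166) in the trained arm against the arm labelled WT. With the block, the training calls of Plcl1 and Plcl2 were lost (adjusted p = 0.0663 and 0.198), as were those of Trak1, Slc6a13 and Stk39 against the arm labelled WT (0.121, 0.216 and 0.154). The GC correction ended those of Gabarap, Slc6a13 and Stk39 (0.0506, 0.0802 and 0.0589). Settings for list genes and for the genes most like Gabra5 were added after seeing the data.

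Only differences that were not called changed sign, and the cause was not tested. Between the untrained arms, Gabrb2 was at 0.000998 with quantile normalization, 0.0193 with array weights, and without male untrained KO library 3 at 0.00775 with the animal number covariate and 0.00544 with the GC correction. Gabra3 was at 0.00808, 0.00120 and 0.0166 under the last 3 of these. With training, the animal number covariate gave 0.0543 for Gabra3 and -0.289 for Gabrd, and without male untrained KO library 3 it gave 0.0951 for Gabra3, 0.00932 for Gabra4 and -0.247 for Gabrd, while the GC correction without that library gave -0.0371 for Gabrd. For sex, Gabra5 was at 0.0406 with array weights, and the animal number covariate gave 0.00924 for Gabra5 and -0.0139 for Gabrd. The GC correction gave 0.0508 for Gabra3, 0.00650 for Gabra5, 0.0809 for Gabrb1 and -0.0373 for Gabrd. Without male untrained KO library 3, the animal number covariate gave 0.0156 for Gabra3 and 0.0664 for Gabra5, and the GC correction 0.0705 for Gabra3, 0.0377 for Gabra5 and 0.0365 for Gabrb1. Leaving out 1 library gave -0.0505 to 0.000149 for Gabra3 and -0.0343 to 0.00861 for Gabrb2 between the untrained arms, -0.00153 to 0.120 for Gabrd with training, -0.0310 to 0.108 for Gabra5 in the trained arm against the arm labelled WT, and -0.0328 to 0.0575 for Gabra5 by sex. For Gabrb1 the counting error was 5.95% in its lowest library, and the part of counting error in the Gabrb1 differences was not tested.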
